A study of Mus musculus with 12 samples.

Results

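The genes that encode the epidermal growth factor (EGF) receptor family, their ligands and a pair of their inhibitors were followed in colonic organoids, which are epithelial cultures grown from crypts in a gel. The 10 genes were taken by name from a table of 48795 genes. They comprised 3 receptors (Egfr, Erbb2 and Erbb3), 5 ligands (Areg, Ereg, Hbegf, Tgfa and Btc) and 2 inhibitors (Lrig1 and Errfi1). All 10 were found by their Ensembl IDs, and all 10 passed the filter on low values (at least 10 normalized counts in at least 3 libraries), as did 14856 genes in all. The 12 libraries formed 4 groups of 3: AhR deficient (AhR-/-, here KO) differentiated, wild-type (WT) differentiated, KO stem and WT stem, all from C57BL/6 mice. AhR is the aryl hydrocarbon receptor, a transcription factor that is activated by ligands. Stem cultures were kept in WENR medium, which supplies Noggin, R-spondin-1 and EGF together with Wnt-3A. Differentiated cultures were kept for 3 days in ENR medium, which lacks Wnt-3A, so that by the names of the media EGF protein was added in all 4 groups. The labels do not state the age or sex of the mice, the kind of AhR allele or the cells in which it was deleted, nor whether replicates stem from different mice or different cultures, so p-values measure the spread between libraries, which may be technical.

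In GRCm38 coordinates of GENCODE vM21, the receptor genes were Egfr (ENSMUSG00000020122) at chr11:16752203-16918158, Erbb2 (ENSMUSG00000062312) at chr11:98412470-98437716 and Erbb3 (ENSMUSG00000018166) at chr10:128567523-128589652. The ligand genes were Areg (ENSMUSG00000029378) at chr5:91139599-91148432, Ereg (ENSMUSG00000029377) at chr5:91074622-91093646, Btc (ENSMUSG00000082361) at chr5:91357261-91402994, Tgfa (ENSMUSG00000029999) at chr6:86195223-86275719 and Hbegf (ENSMUSG00000024486) at chr18:36504927-36515805, of which Areg, Ereg and Btc are neighbours in 1 cluster. The inhibitor genes were Lrig1 (ENSMUSG00000030029) at chr6:94604529-94700158 and Errfi1 (ENSMUSG00000028967) at chr4:150853919-150868892. Values are per gene and not per isoform.

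The libraries held 25.06 to 99.02 M reads, and the fewest reads behind any member value were 650 (Btc in WT stem 1). Values are normalized counts, that is, read counts divided by a factor per library. Normalized counts of Ahr itself were higher in KO than in WT libraries (3110 to 3824 against 2127 to 2260 in differentiated cultures, 2503 to 2831 against 1746 to 1909 in stem cultures), and since the deleted part is not given, this count does not check the genotype. Cyp1b1, a textbook AhR target, had 13.0 to 20.6 normalized counts in KO differentiated cultures, against 574 to 680 in WT differentiated cultures, and 269 to 571 in KO stem cultures, against 7479 to 8502 in WT stem cultures. The 6 epithelial markers summed to 447683 or more in every library, while the immune and endothelial markers summed to at most 25.0 and 27.3. The library WT stem 1 stood apart, with 22290 normalized counts over 12 stromal markers (Vim alone at 13196, with Dcn, Lum and Des at 0), against 55.0 to 643 in the other stem libraries, of which KO stem 3 was the highest. Results that rest on WT stem 1 are given with and without it. Since these were bulk libraries, fewer cells of a type and less RNA per cell cannot be told apart.

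The EGF receptor and its relatives are tyrosine kinases that act in pairs. EGFR binds EGF, transforming growth factor alpha (Tgfa), amphiregulin (Areg), betacellulin (Btc), heparin-binding EGF-like growth factor (Hbegf) and epiregulin (Ereg). ERBB2 has no known ligand of its own and serves as a partner, and ERBB3 binds neuregulins and has a weak kinase, so that it signals through its partners. The ligands are made as membrane proteins and are released by proteases. LRIG1 is a membrane protein that lowers the amount of receptors and marks stem cells in the gut, and ERRFI1 (also called MIG6) binds and blocks the active receptor kinase. In the intestine, EGF signals drive stem cell proliferation, which is why EGF is a standard part of organoid media.

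Promoters of 7 of the 10 members were matched in RefSeq (build GRCm38.p6), each as 250 bases before and 50 bases after the start site. Those of the receptors and ligands Erbb2, Egfr, Btc and Tgfa are printed 5′ to 3′. Each of these genes changed with an adjusted p under 0.05 (limma) in at least 1 comparison below, Egfr with differentiation only. GCGTG, the core of the AhR response element, is in capitals wherever it occurs on either strand. The printed windows lie at chr11:98412234-98412533 (plus strand, Erbb2), chr11:16751953-16752252 (plus strand, Egfr), chr5:91402945-91403244 (minus strand, Btc) and chr6:86194972-86195271 (plus strand, Tgfa).
Erbb2: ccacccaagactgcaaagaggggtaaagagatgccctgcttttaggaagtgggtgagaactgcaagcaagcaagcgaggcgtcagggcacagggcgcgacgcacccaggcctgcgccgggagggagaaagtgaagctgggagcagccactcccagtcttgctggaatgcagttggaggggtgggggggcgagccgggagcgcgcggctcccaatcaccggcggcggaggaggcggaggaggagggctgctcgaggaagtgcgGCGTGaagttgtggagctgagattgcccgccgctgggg
Egfr: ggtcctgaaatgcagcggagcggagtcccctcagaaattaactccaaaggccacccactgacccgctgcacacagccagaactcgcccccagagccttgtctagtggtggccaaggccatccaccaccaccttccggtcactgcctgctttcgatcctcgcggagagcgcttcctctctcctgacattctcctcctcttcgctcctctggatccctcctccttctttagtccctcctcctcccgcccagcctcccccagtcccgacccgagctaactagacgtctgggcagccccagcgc
Btc: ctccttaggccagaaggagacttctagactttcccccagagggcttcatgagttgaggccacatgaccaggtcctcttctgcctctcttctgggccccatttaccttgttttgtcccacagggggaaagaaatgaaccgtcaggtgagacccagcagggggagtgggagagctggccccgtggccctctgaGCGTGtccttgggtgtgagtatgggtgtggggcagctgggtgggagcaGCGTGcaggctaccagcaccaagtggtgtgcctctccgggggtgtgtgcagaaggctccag
Tgfa: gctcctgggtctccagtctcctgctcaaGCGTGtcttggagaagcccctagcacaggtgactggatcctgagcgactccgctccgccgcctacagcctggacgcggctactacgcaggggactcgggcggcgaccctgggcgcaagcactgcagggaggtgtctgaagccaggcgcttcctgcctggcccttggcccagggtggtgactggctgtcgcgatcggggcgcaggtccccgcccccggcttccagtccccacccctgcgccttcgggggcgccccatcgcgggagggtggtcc

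On either strand, GCGTG occurred 2 times in the Btc window, starting at bases 192 and 240, and 1 time each in the windows of Erbb2 (base 263), Tgfa (base 29) and Lrig1 (base 283). Of the 2 windows listed for Errfi1, one held it 3 times and the other 0 times, and the windows of Egfr and Areg held none. GCGTG was present in 32.4% of all 32851 promoter windows of the same length. CTTTGA, a core of TCF and LEF sites, was found only in the first Errfi1 window and in 16% of all windows. TGANTCA, a core of AP-1 sites, was found in no member window and in 7.81% of all windows. These matches describe letters and not binding, and the motifs do not overlap in these windows.

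The receptors were the members that moved most with differentiation. All 3 were several times higher in differentiated than in stem cultures of both genotypes, with no overlap between the groups, as was also the case in one direction or the other for 74.3% of all genes in KO and 75.0% in WT. Egfr had 15755, 13567 and 11586 normalized counts in KO differentiated cultures, against 3669, 3592 and 3637 in KO stem cultures. It had 17270, 17216 and 15250 in WT differentiated cultures, against 4289, 3333 and 3872 in WT stem cultures. The ratio of the means was 3.75 in KO and 4.33 in WT, or 1.90 (95% interval 1.65 to 2.14, adjusted p = 6.71e-08) and 2.12 (1.87 to 2.36, adjusted p = 1.74e-08) on the log2 scale. Of all genes tested, 12.3% in KO and 12.4% in WT had a larger absolute log2 change. All changes are on the scale of log2(normalized count + 1), from limma, with p-values adjusted by Benjamini-Hochberg over the 14856 genes tested.

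Erbb2, the partner receptor, had 13088, 16873 and 17948 normalized counts in KO differentiated cultures, against 7144, 6264 and 6677 in KO stem cultures. In WT it had 24507, 21860 and 24572 normalized counts in differentiated cultures, against 6412, 6783 and 6585 in stem cultures. Every differentiated library was thus above every stem library, and the stem libraries of both genotypes lay within 6264 to 7144. The rise was 2.39-fold in KO and 3.59-fold in WT (log2 changes of 1.24 ± 0.10 and 1.84 ± 0.10, SE, adjusted p = 9.77e-07 and 2.82e-08). Erbb3, the receptor of neuregulins, followed the same order, with 20110, 23583 and 24678 in KO differentiated cultures, against 9462, 9033 and 10729 in KO stem cultures. In WT it had 30920, 28131 and 32347 in differentiated cultures, against 7627, 9803 and 9720 in stem cultures. Erbb3 rose 2.34-fold in KO and 3.37-fold in WT (log2 changes of 1.22 ± 0.11 and 1.76 ± 0.11, SE, adjusted p = 2.07e-06 and 7.69e-08). These 6 receptor calls, in comparisons where 34.1% (KO) and 36.3% (WT) of all genes rose, held under every alternative run. Epithelial markers (Epcam, Cdh1, Krt8, Krt18, Vil1 and Cdx2, none at 0 in any library) moved the same way. They summed to 852296 to 910672 normalized counts in KO differentiated cultures, against 447683 to 502144 in KO stem cultures, and to 1030975 to 1093100 in WT differentiated cultures, against 489628 to 563631 in WT stem cultures. Of the 6 markers, 5 rose in KO (median log2 change 0.98, and 1.24 for the 3 receptors) and 6 in WT (1.10, and 1.84 for the receptors), and their part in the receptor changes was not tested.

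**Figure D1:**
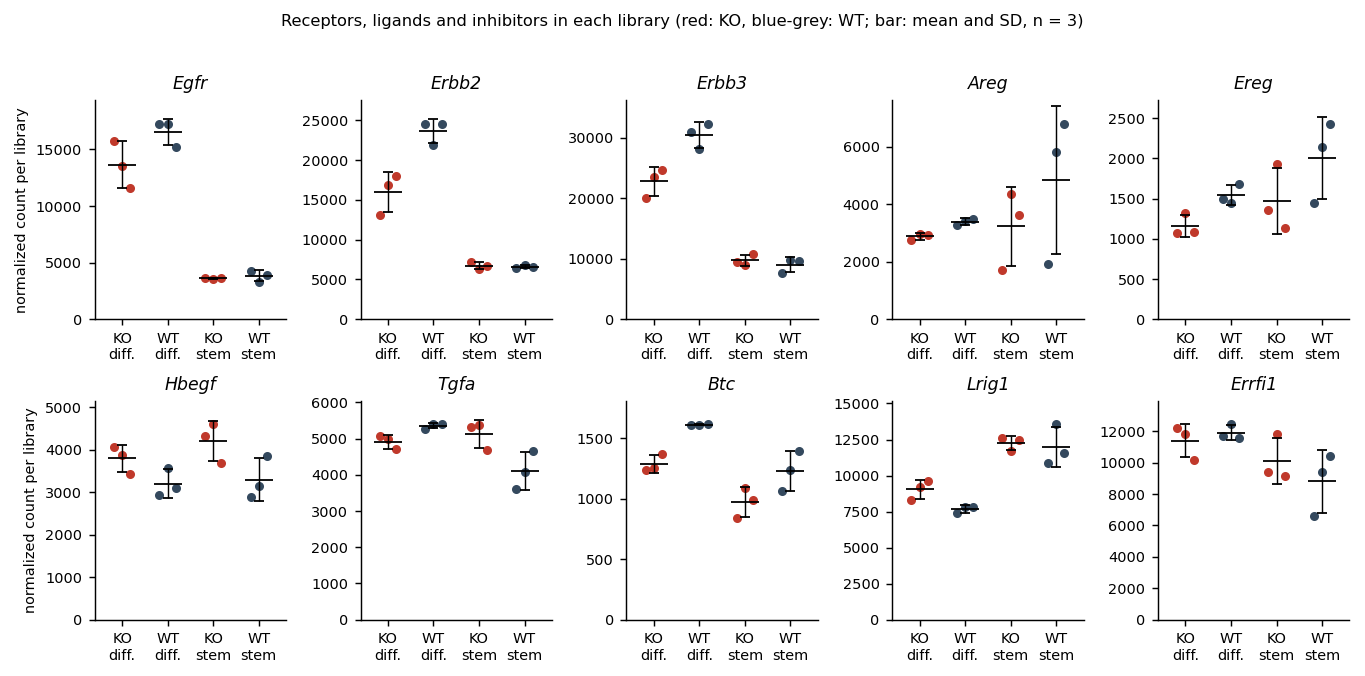
Normalized counts of the 10 genes in each of the 12 libraries (points; red, KO; blue-grey, WT), with black bars for the group mean ± SD (n = 3), each panel on its own linear axis from 0. The receptors Egfr, Erbb2 and Erbb3 were higher in all differentiated than in all stem libraries, and Areg varied from 1721 to 6810 among stem libraries but from 2753 to 3502 among differentiated ones.

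In differentiated cultures, Erbb2 and Erbb3 were lower in KO than in WT, a direction called for 13.9% of all genes tested. The Erbb2 values given above did not overlap, the highest KO differentiated library (17948) lying below the lowest WT differentiated library (21860). The same 2 groups did not overlap, in one direction or the other, for 53.1% of all genes. Its mean was 15970 ± 2550 normalized counts in KO and 23650 ± 1550 in WT (SD, n = 3 each), a log2 change of -0.58 (95% interval -0.80 to -0.35, adjusted p = 0.00316). Erbb3 averaged 22790 ± 2380 in KO and 30470 ± 2140 in WT (SD, n = 3 each), again without overlap, with a log2 change of -0.42 (-0.67 to -0.18, adjusted p = 0.0182). Erbb2 was called under all 16 alternatives, with log2 changes of the same sign throughout, whereas the Erbb3 call was lost with quantile normalization (adjusted p = 0.0826) and without KO differentiated 1, WT differentiated 1 or WT differentiated 3. Egfr averaged 13640 ± 2090 in KO and 16580 ± 1150 in WT (SD, n = 3 each), and its groups overlapped (log2 change of -0.29, -0.54 to -0.05, adjusted p = 0.074). Egfr passed the threshold in 2 of the 16 alternatives, among them without KO differentiated 1 (adjusted p = 0.0283, range over all alternatives 0.0283 to 0.335).

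In stem cultures 0 of the 3 receptors were called between genotypes, by limma or edgeR (over all genes limma called 3.48% as risen and 3.09% as fallen). Of the 3, 0 had an unadjusted p under 0.05, beside 3658 of all 14856 genes. The log2 changes of KO over WT were -0.07 for Egfr (95% interval -0.31 to 0.18), 0.02 for Erbb2 (-0.21 to 0.25) and 0.11 for Erbb3 (-0.13 to 0.36). For Erbb2 the response to differentiation itself was smaller in KO than in WT, by 0.60 on the log2 scale (interaction -0.60, -0.92 to -0.28, adjusted p = 0.0327). That call was lost in several alternatives, among them the fit with all genes kept (adjusted p = 0.0525), the replicate block within genotype (adjusted p = 0.0561) and the removal of KO stem 1, KO stem 2, KO stem 3, WT differentiated 1 or WT differentiated 3 (adjusted p between 0.0534 and 0.0874). Without WT stem 1 it held (-0.58, adjusted p = 0.0437), and without WT stem 1 and KO stem 3 it was lost (adjusted p = 0.0709). The interaction of Erbb3 was of like size (-0.53, -0.88 to -0.19) with an adjusted p of 0.0598, which DESeq2 put at 0.018, and that of Egfr was -0.22 (-0.57 to 0.13, adjusted p = 0.395).

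Markers of differentiated colonocytes moved with the receptor difference between genotypes. The 4 markers (Krt20, Car1, Slc26a3 and Aqp8) summed to 13165 to 37916 normalized counts in KO differentiated cultures, against 83864 to 133107 in WT differentiated cultures, with no marker at 0, and all 4 were called lower in KO. The 4 stem and Wnt markers (Lgr5, Ascl2, Axin2 and Smoc2) summed to 6997 to 8644 in KO differentiated cultures, against 3927 to 4271 in WT differentiated cultures, and all 4 were called higher in KO. Of the 6 epithelial markers summed above (852296 to 910672 in KO differentiated cultures, against 1030975 to 1093100 in WT differentiated cultures), 0 rose and 4 fell in KO (list median -0.35). KO differentiated 1, the library with the lowest Erbb2 and Erbb3 of the differentiated cultures, also had the lowest sum of colonocyte markers (13165), but it had the highest Egfr of the KO differentiated libraries (15755). It was unlike its replicates, with a mean chi-square per gene between read counts of 67.08 to KO differentiated 2 and 112.95 to KO differentiated 3. Those libraries stood at 12.78 from each other. The stem libraries numbered 1 also stood apart by this measure. KO stem 1 was at 51.72 and 52.6 from its replicates, which were 24.31 apart. WT stem 1 was at 105.08 and 92.46 from its replicates, which were 17.55 apart. The 3 goblet markers (Muc2, Tff3 and Clca1) summed to 1355 in KO differentiated 1, against 4458.5 and 3979 in KO differentiated 2 and 3. The part of these markers in the receptor difference was not tested.

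Per kilobase of exon, a scale on which genes can be roughly compared, Erbb3 and Erbb2 were the more abundant receptor transcripts in all 4 groups. The length used was that of all annotated exons of a gene, which can exceed that of the transcript expressed. Ranks and shares per kb depend on this choice. Erbb3 stood at 3790 ± 396 normalized counts per kb in KO differentiated, 5060 ± 356 in WT differentiated, 1620 ± 147 in KO stem and 1500 ± 205 in WT stem cultures (SD, n = 3 each). Erbb2 stood at 3070 ± 490, 4540 ± 297, 1290 ± 84.5 and 1270 ± 35.6 in the same order of groups, and Egfr at 1200 ± 184, 1460 ± 102, 321 ± 3.4 and 338 ± 42.3. Egfr made up 15.2% ± 3.7 of the receptor sum per kb in KO differentiated cultures, against 9.96% ± 0.51 in KO stem cultures. It made up 13.3% ± 1.43 in WT differentiated cultures, against 11% ± 2.04 in WT stem cultures. The sum of the 3 receptors was 8057 ± 711 per kb in KO differentiated and 11070 ± 585 in WT differentiated cultures, and 3225 ± 186 in KO stem and 3108 ± 200 in WT stem cultures.

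**Figure D2:**
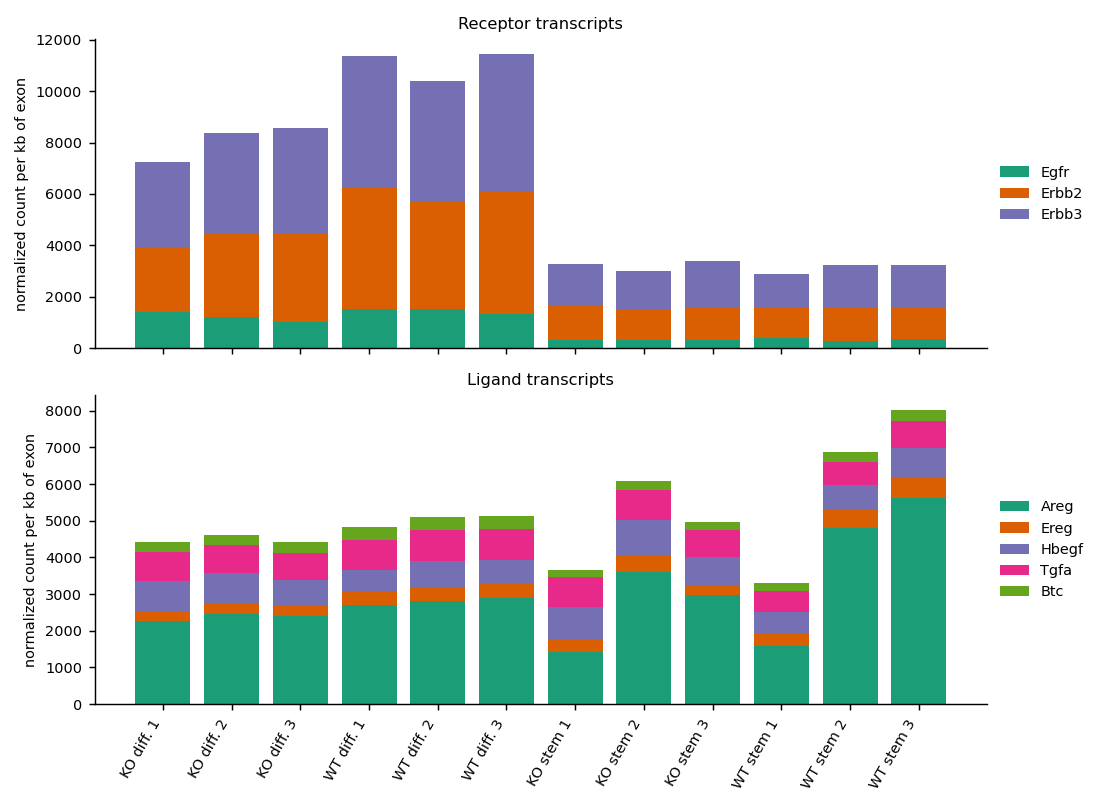
Normalized counts per kb of exon in each library, stacked by gene, for the 3 receptors (top) and the 5 ligands (bottom), with libraries from left to right as KO differentiated, WT differentiated, KO stem and WT stem. The receptor sum ranged from 7246 to 11440 in differentiated libraries and from 2877 to 3386 in stem libraries, while Areg made up most of the ligand sum in 10 of the 12 libraries.

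The ligands changed far less with differentiation than the receptors. Areg, which encodes amphiregulin, was the most abundant ligand transcript per kb, with 2380 ± 96.5 in KO differentiated, 2800 ± 95.3 in WT differentiated, 2670 ± 1130 in KO stem and 3990 ± 2130 in WT stem cultures (SD, n = 3 each). Its normalized counts were 1721, 4374 and 3623 in KO stem cultures, against 1909, 5826 and 6810 in WT stem cultures. The lowest library of each genotype was the one numbered 1, and the groups overlapped. In differentiated cultures Areg had 2753, 2974 and 2931 in KO, against 3276, 3430 and 3502 in WT, with no overlap. Its coefficient of variation was thus 4.06% and 3.4% in KO and WT differentiated cultures, and 42.2% and 53.5% in KO and WT stem cultures. With 1 spread shared by all groups, no comparison of Areg passed (log2 change of KO over WT -0.49, -1.42 to 0.44, adjusted p = 0.506 in stem cultures, and -0.24, -1.17 to 0.70, adjusted p = 0.712 in differentiated cultures). Fitted on the 6 differentiated libraries alone, the same -0.24 had an adjusted p of 0.0196. Without WT stem 1, the library with stromal transcripts, the stem difference was -1.07 (-1.71 to -0.42, adjusted p = 0.0479), while without KO stem 1 it was -0.09 (-1.01 to 0.83, adjusted p = 0.933). With differentiation Areg changed by -0.06 in KO (adjusted p = 0.907) and by -0.31 in WT (-1.25 to 0.62, adjusted p = 0.521), and the change in WT was -0.89 and passed without WT stem 1 (adjusted p = 0.0181). The part of the stromal transcripts in these differences was not tested.

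Ereg, the gene of epiregulin that neighbours Areg on chromosome 5, showed the same order at a lower level. It had 1076, 1320 and 1091 normalized counts in KO differentiated cultures, against 1494, 1451 and 1683 in WT differentiated cultures. In stem cultures it had 1360, 1924 and 1130 in KO, against 1441, 2144 and 2431 in WT. The differentiated groups did not overlap and the stem groups did. The log2 change of KO over WT was -0.41 (-0.87 to 0.04, adjusted p = 0.162) in differentiated and -0.45 (-0.90 to 0.01, adjusted p = 0.211) in stem cultures. It reached adjusted p = 0.0308 on the differentiated libraries alone and 0.0488 in stem cultures without WT stem 1. With differentiation Ereg moved by -0.31 in KO and -0.35 in WT on the log2 scale, and neither passed (adjusted p = 0.206 and 0.153). Leaving out WT stem 1 brought the change in WT to -0.57 and past the threshold (adjusted p = 0.0172), and leaving out KO stem 3 as well brought that in KO to -0.48 (adjusted p = 0.0152).

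Btc, the gene of betacellulin, also on chromosome 5, was the ligand that rose in both genotypes. It had 1233, 1256 and 1367 normalized counts in KO differentiated cultures, against 842, 1091 and 987 in KO stem cultures. In WT it had 1608, 1605 and 1615 in differentiated cultures, against 1060, 1236 and 1393 in stem cultures. It rose with differentiation by 0.41 in KO and 0.40 in WT on the log2 scale (adjusted p = 0.00608 and 0.00635), and the interaction was 0.01 (-0.33 to 0.35). In differentiated cultures Btc was lower in KO than in WT without overlap (log2 change of -0.33, -0.57 to -0.09, adjusted p = 0.0464). This call lay close to the threshold and was lost with edgeR, with no filter, with quantile normalization and without any 1 of the 6 libraries (adjusted p range over all alternatives 0.0136 to 0.138). In stem cultures the change was -0.34 (-0.58 to -0.10, adjusted p = 0.0913), and it passed without WT stem 1 (-0.44, adjusted p = 0.0251).

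Tgfa, the gene of transforming growth factor alpha, was the ligand whose response differed between genotypes. It had 5065, 4988 and 4702 normalized counts in KO differentiated cultures, against 5324, 5365 and 4681 in KO stem cultures, so that the KO groups overlapped. In WT it had 5271, 5399 and 5399 in differentiated cultures, against 3606, 4067 and 4651 in stem cultures, without overlap. Tgfa rose in WT by 0.39 (0.20 to 0.58, adjusted p = 0.00153) and changed by -0.06 in KO (-0.25 to 0.13, adjusted p = 0.575), with an interaction of -0.45 (-0.71 to -0.18, adjusted p = 0.0446). In stem cultures Tgfa was higher in KO than in WT (0.32, 0.14 to 0.51, adjusted p = 0.0471), and in differentiated cultures it was -0.12 (-0.31 to 0.06, adjusted p = 0.305). Both calls lay at the threshold. The stem call was lost without WT stem 1 (0.23, adjusted p = 0.0712), without KO stem 1, KO stem 2 or WT stem 2 (adjusted p = 0.162, 0.152 and 0.11), with no filter (adjusted p = 0.0735) and on the stem libraries alone (adjusted p = 0.178). The interaction passed without WT stem 1 (-0.36, adjusted p = 0.0457) and in 11 of 24 alternatives (adjusted p 0.0101 to 0.105).

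Hbegf, which encodes heparin-binding EGF-like growth factor, had 4066, 3880 and 3435 normalized counts in KO differentiated cultures, against 2926, 3578 and 3103 in WT differentiated cultures. In stem cultures it had 4309, 4598 and 3680 in KO, against 2884, 3155 and 3848 in WT. KO means were above WT means in both conditions, with 1 or more libraries overlapping in each, and no comparison passed (0.25, -0.02 to 0.51, adjusted p = 0.152 in differentiated and 0.35, 0.09 to 0.62, adjusted p = 0.104 in stem cultures). Without WT stem 3 the stem difference was 0.47 with an adjusted p of 0.0472. Summed per kb, the 5 ligands reached 4484 ± 115 in KO differentiated and 5018 ± 162 in WT differentiated cultures, and 4895 ± 1220 in KO stem and 6063 ± 2450 in WT stem cultures (SD, n = 3 each). Hbegf and Tgfa made up 17.5% ± 1.47 and 16.9% ± 0.66 of that sum in KO differentiated cultures, against 13.2% ± 1.14 and 16.5% ± 0.311 in WT differentiated cultures. The share of Areg was 53.0% ± 1.7 in KO differentiated and 55.8% ± 0.475 in WT differentiated cultures, and 52.7% ± 12 in KO stem and 62.4% ± 12.9 in WT stem cultures.

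**Figure D3:**
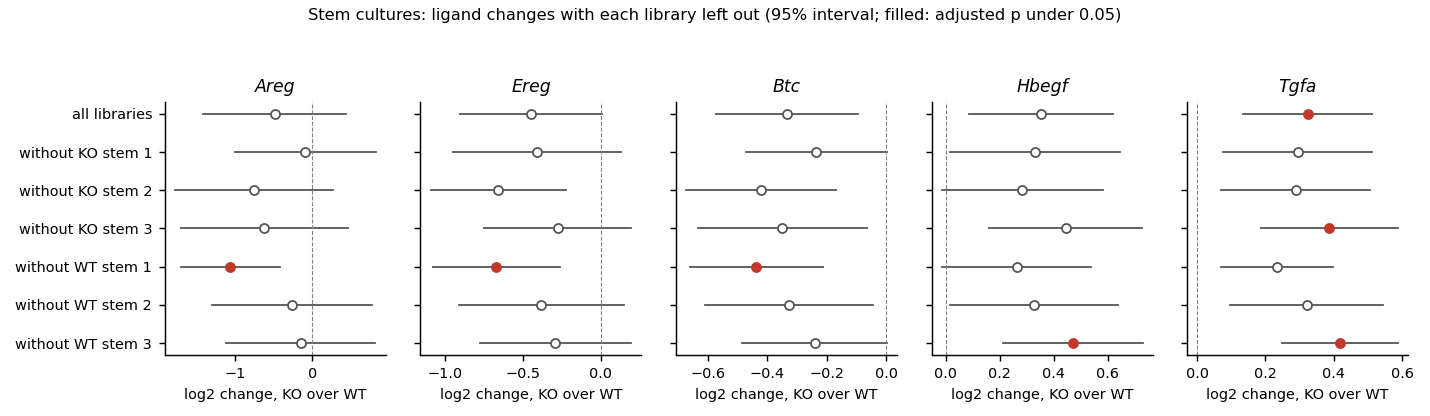
Log2 change of KO over WT in stem cultures with 95% interval (limma) for the 5 ligands, with all libraries (top) and with each stem library left out in turn; filled points have an adjusted p under 0.05. Areg, Ereg and Btc passed only without WT stem 1 (-1.07 for Areg), Hbegf only without WT stem 3, and Tgfa with all libraries and without KO stem 3 or WT stem 3.

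The inhibitors parted. Lrig1 had 8304, 9171 and 9642 normalized counts in KO differentiated cultures, against 12575, 11725 and 12500 in KO stem cultures. In WT it had 7369, 7792 and 7841 in differentiated cultures, against 10874, 13564 and 11562 in stem cultures. All differentiated libraries were below all stem libraries, and Lrig1 fell by 0.44 in KO and by 0.64 in WT on the log2 scale (log2 changes of -0.44 ± 0.08 and -0.64 ± 0.08, SE, adjusted p = 0.000535 and 2.49e-05). Both calls held under every alternative run. In differentiated cultures Lrig1 was higher in KO than in WT without overlap, but the change of 0.24 (0.05 to 0.42) missed the threshold (adjusted p = 0.0535). It passed in 7 of 16 alternatives, among them edgeR and DESeq2, with an adjusted p range of 0.0117 to 0.156.

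Errfi1 had 12194, 11825 and 10192 normalized counts in KO differentiated cultures, against 9411, 11804 and 9142 in KO stem cultures, and these groups overlapped. In WT it had 11697, 12448 and 11589 in differentiated cultures, against 6583, 9420 and 10418 in stem cultures, without overlap. It rose with differentiation in WT (0.46, 0.13 to 0.80, adjusted p = 0.0172), a call that was lost without WT stem 1 (0.27, adjusted p = 0.0514), without WT differentiated 2 (adjusted p = 0.0528) and with quantile normalization (adjusted p = 0.0638), and its change in KO was 0.18 (-0.16 to 0.51, adjusted p = 0.321). Errfi1 did not pass between genotypes, with -0.07 (-0.40 to 0.27) in differentiated and 0.22 (-0.12 to 0.55) in stem cultures. By its mean per kb Errfi1 was the higher inhibitor transcript in all 4 groups (3180 ± 297 in KO differentiated, 3330 ± 131 in WT differentiated, 2820 ± 409 in KO stem and 2460 ± 555 in WT stem cultures), against Lrig1 (1620 ± 122, 1370 ± 46.4, 2200 ± 84.3 and 2150 ± 250 in the same order), and in WT stem cultures the means differed by less than the SD of Errfi1.

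**Figure D4:**
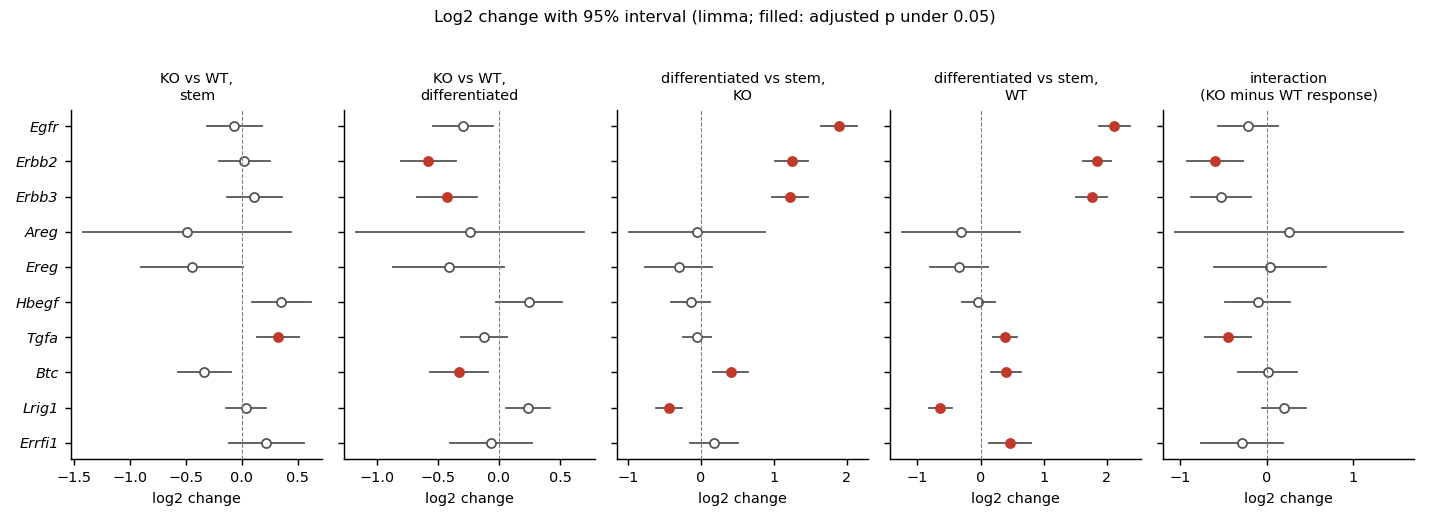
Log2 changes of the 10 genes with 95% intervals (limma) in the 5 comparisons; filled points have an adjusted p under 0.05, and the interaction is the KO response minus the WT response to differentiation. The receptor changes with differentiation (1.22 to 2.12) stood apart from those of the ligands and inhibitors (-0.64 to 0.46).

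Counted over the 10 members, 4 rose and 1 fell with differentiation in KO, where 34.1% of all genes tested rose and 33.6% fell. In WT 6 rose and 1 fell, where 36.3% of all genes rose and 35.9% fell. Between genotypes in differentiated cultures, 0 rose and 3 fell in KO (Erbb2, Erbb3 and Btc), against a background of 13.8% and 13.9%. In stem cultures 1 rose (Tgfa) and 0 fell, against 3.48% and 3.09%. In the interaction 0 were positive and 2 negative (Erbb2 and Tgfa), against 5.12% and 3.58%. The groups did not overlap for 5 members between KO differentiated and KO stem cultures (74.3% of all genes), for 7 between WT differentiated and WT stem cultures (75.0%), for 7 between KO and WT differentiated cultures (53.1%) and for 1 between KO and WT stem cultures (29.5%). The median log2 change of the members was 0.06 in KO and 0.39 in WT with differentiation (0.01 over all genes in each), -0.26 between genotypes in differentiated cultures (0.02 over all genes) and 0.03 in stem cultures (-0.04 over all genes). Without WT stem 1, 0 members rose and 3 fell in KO stem relative to WT stem cultures (Areg, Ereg and Btc), beside 656 and 709 of all 14856 genes. In that setting 5 members rose and 3 fell between WT differentiated and WT stem cultures, beside 5432 and 5348 of all genes. Without WT stem 1 and KO stem 3, 1 member rose and 2 fell between genotypes in stem cultures, beside 742 and 755 of all 14856 genes. With differentiation 4 rose and 2 fell in KO (5152 and 5029 of all genes), and 6 rose and 3 fell in WT (5442 and 5298). In that setting 1 member was called in the interaction, beside 1241 of all genes. Between genotypes in stem cultures, 517 genes rose and 459 fell over the whole table, and with edgeR's scaling 635 rose and 308 fell.

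The genes whose profiles over the 12 libraries were closest to each member, by the root-mean-square difference of centred log2 values among 11561 protein-coding genes, were Slc6a8, Dgka and Ehbp1l1 for Erbb2 (0.08 to 0.10) and Tcta, Ralgapa2 and Dsp for Erbb3 (0.09 to 0.10). Erbb2 and Erbb3 lay 0.12 apart, closer than any other pair of members, and Egfr lay 0.34 and 0.36 from them. The closest to Egfr were Gpr137b, Lamb3 and Fam20c (0.14 to 0.16). Among ligands, Tgfa had the closest matches (Ston1, Klhl22 and Wbp2, 0.05 to 0.08) and Areg the most distant (Tsc22d3, Vegfa and Bhlhe40, 0.21 to 0.26). Ereg was followed by Ppme1, Ier3 and Gstp2 (0.19 to 0.20), Hbegf by Gstt3, Hps1 and Tnfrsf10b (0.10 to 0.11) and Btc by Mia2, Smap1 and Lrrfip2 (0.09 to 0.10). Lrig1 was followed by Tecr, Rpl4 and BC052040 (0.07 to 0.09), and Errfi1 by Nudt18, Krt18 and Vps37b (0.08 to 0.10). Areg and Ereg, the neighbours on chromosome 5, lay 0.39 apart, no closer than Ereg and Lrig1 (0.39). These distances describe the 12 libraries, which share their groups.

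The other receptors and ligands of the family were hardly measured. Erbb4, the remaining receptor, had at most 3.26 normalized counts in any library, Epgn at most 2.31, Nrg2 at most 3.77 and Nrg3 at most 3.26. Transcripts of Egf were also scarce, with 3.05 to 11.6 normalized counts, in cultures to which EGF protein was added. Nrg1, a ligand of ERBB3, was at 84.8 in WT stem 1, the library with stromal transcripts, and at most 5.35 in the other 11 libraries. Of these 7 genes only Nrg4, another neuregulin, passed the filter, at 10.7, 10.7 and 8.18 in KO differentiated and 9.15, 8.36 and 15.9 in WT differentiated cultures, against 0 to 2.04 in KO stem and 0 to 1.63 in WT stem cultures. Since Nrg4 passed the filter only through the differentiated libraries, no test of it is given.

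Among 8 genes of ligand release, Timp3 changed most. It encodes an inhibitor of metalloproteases that includes ADAM17, the main sheddase of several EGFR ligands. Timp3 had 1224, 667 and 978 normalized counts in KO differentiated cultures, against 212, 119 and 223 in WT differentiated cultures, and 14739, 9797 and 9218 in KO stem cultures, against 2917, 1366 and 2497 in WT stem cultures. Every KO library was above every WT library of its condition (log2 changes of 2.37 ± 0.33 and 2.35 ± 0.33, SE, adjusted p = 0.00109 and 0.00217), and both calls held in all alternatives run. With differentiation Timp3 fell in both genotypes (log2 changes of -3.57 in KO and -3.59 in WT). Between genotypes, 2 genes of the list rose in KO differentiated cultures (Timp3 and Rhbdf2, which encodes an inactive rhomboid that brings ADAM17 to the surface, at 0.37, adjusted p = 0.00983) and 0 fell, and in stem cultures Timp3 alone rose. Over all genes 13.8% rose and 13.9% fell in KO differentiated cultures, and 3.48% and 3.09% in KO stem cultures. With differentiation 4 of the 8 rose and 3 fell in KO (34.1% and 33.6% of all genes), and 3 rose and 3 fell in WT (36.3% and 35.9%). Furin, a proprotein convertase, rose by 1.42 in KO and 1.41 in WT, Rhbdl2, a rhomboid protease, rose by 1.09 and 1.23, and Adam9, a membrane metalloprotease, fell by 1.38 and 1.19 on the log2 scale. In differentiated cultures edgeR called 4 genes of the list higher in KO, and in stem cultures it called 2. Of all 14856 genes, edgeR called 2301 higher and 1791 lower in KO differentiated cultures, and 635 and 308 in KO stem cultures. Without WT stem 1, 2 genes of the list rose and 1 fell in KO stem cultures, beside 656 and 709 of all 14856 genes.

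Of 14 adaptors and members of the Ras-MAPK relay, 0 rose and 5 fell in KO differentiated cultures relative to WT (list median -0.16, all genes 0.02), where 13.8% of all genes rose and 13.9% fell. The 3 with the largest change were Map2k1 (-0.48, adjusted p = 0.0215, called in 11 of 16 alternatives) and Mapk3 (-0.44, adjusted p = 0.0101), which encode the kinases MEK1 and ERK1, and Sos2 (-0.33, adjusted p = 0.00622), an exchange factor for Ras. In stem cultures limma called 0 of the 14, with 5 at an unadjusted p under 0.05, edgeR called 1 as higher in KO, and 1 fell once WT stem 1 was left out. Of all 14856 genes, limma called 976 in stem cultures and 3658 had an unadjusted p under 0.05. edgeR called 635 of all genes higher in KO stem cultures, and 709 fell without WT stem 1. With differentiation 6 rose and 1 fell in KO (34.1% and 33.6% of all genes), and 9 rose and 2 fell in WT (36.3% and 35.9%), led by Gab1, a docking protein (1.21 in KO and 1.56 in WT), and Mapk3 (0.60 and 0.92). Of 6 genes of the PI3K arm, Pik3cb alone was called between genotypes, higher in KO stem cultures (0.39, adjusted p = 0.0262, called in 13 of 18 alternatives), where 3.48% of all genes rose. In differentiated cultures 0 of the 6 were called by limma or edgeR, and 2 had an unadjusted p under 0.05. Of all 14856 genes, limma called 4103 and edgeR 4092 there, and 6011 had an unadjusted p under 0.05 in limma. With differentiation Pik3ca and Pik3r1, a catalytic and a regulatory subunit of PI3 kinase, rose in KO (0.53 and 0.51) and in WT (0.55 and 0.45), and Akt2, a kinase downstream of PI3 kinase, fell by 0.49 in KO and 0.47 in WT. Pik3cb fell in KO by 0.56, with -0.10 in WT (adjusted p = 0.35).

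Of 15 genes of receptor turnover and feedback inhibition, 1 rose and 0 fell in KO differentiated cultures (Spry1, a Sprouty inhibitor of receptor kinase signalling, 0.52, adjusted p = 0.00829), and 0 rose and 1 fell in KO stem cultures (Lrig3, a relative of Lrig1, -0.89, adjusted p = 0.0348, called in 12 of 18 alternatives). The shares of all genes that rose and fell were 13.8% and 13.9% in differentiated and 3.48% and 3.09% in stem cultures. In stem cultures 1 rose and 2 fell once WT stem 1 was left out, beside 656 and 709 of all 14856 genes. With differentiation 5 of the 15 rose and 5 fell in KO, beside 34.1% and 33.6% of all genes, and 6 rose and 4 fell in WT, beside 36.3% and 35.9%. Cblb, a ubiquitin ligase for receptors, rose by 1.41 in KO and 1.26 in WT, Lrig3 by 1.44 and 0.88, and Dusp4, a MAPK phosphatase, by 0.87 and 1.04. Lrig3 therefore rose where Lrig1 fell.

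Of 9 genes known to follow MAPK activity, 3 rose and 1 fell in KO differentiated cultures relative to WT (list median 0.43, all genes 0.02), beside 13.8% and 13.9% of all genes. The ETS factors Etv5 and Etv4 were higher (0.77 and 0.62, adjusted p = 0.000405 and 0.00109), as was the early response gene Egr1 (0.60, adjusted p = 0.00136), and Fos was lower (-0.30, adjusted p = 0.0212). Etv5 had 737, 675 and 601 normalized counts in KO differentiated cultures, against 400, 376 and 402 in WT differentiated cultures, with no overlap. Egr1 had 6281, 5333 and 5123 in KO differentiated cultures, against 3535, 4062 and 3425 in WT differentiated cultures, also with no overlap. Etv5, Etv4 and Egr1 were called in all 16 alternatives, while the Fos call was lost with quantile normalization and without KO differentiated 1, WT differentiated 1 or WT differentiated 3. In stem cultures 0 of the 9 were called by limma or edgeR, and 1 had an unadjusted p under 0.05. Of all 14856 genes, limma called 976 and edgeR 943 there, and 3658 had an unadjusted p under 0.05 in limma. Without WT stem 1, 1 of the 9 was called, as lower in KO, beside 709 of all 14856 genes. With differentiation 4 of the 9 rose and 4 fell in KO, and 1 rose and 5 fell in WT, with the shares of all genes given above. Fos rose by 0.91 in KO and 1.03 in WT, and Fosl1 rose in KO (1.08, adjusted p = 0.01).

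**Figure D5:**
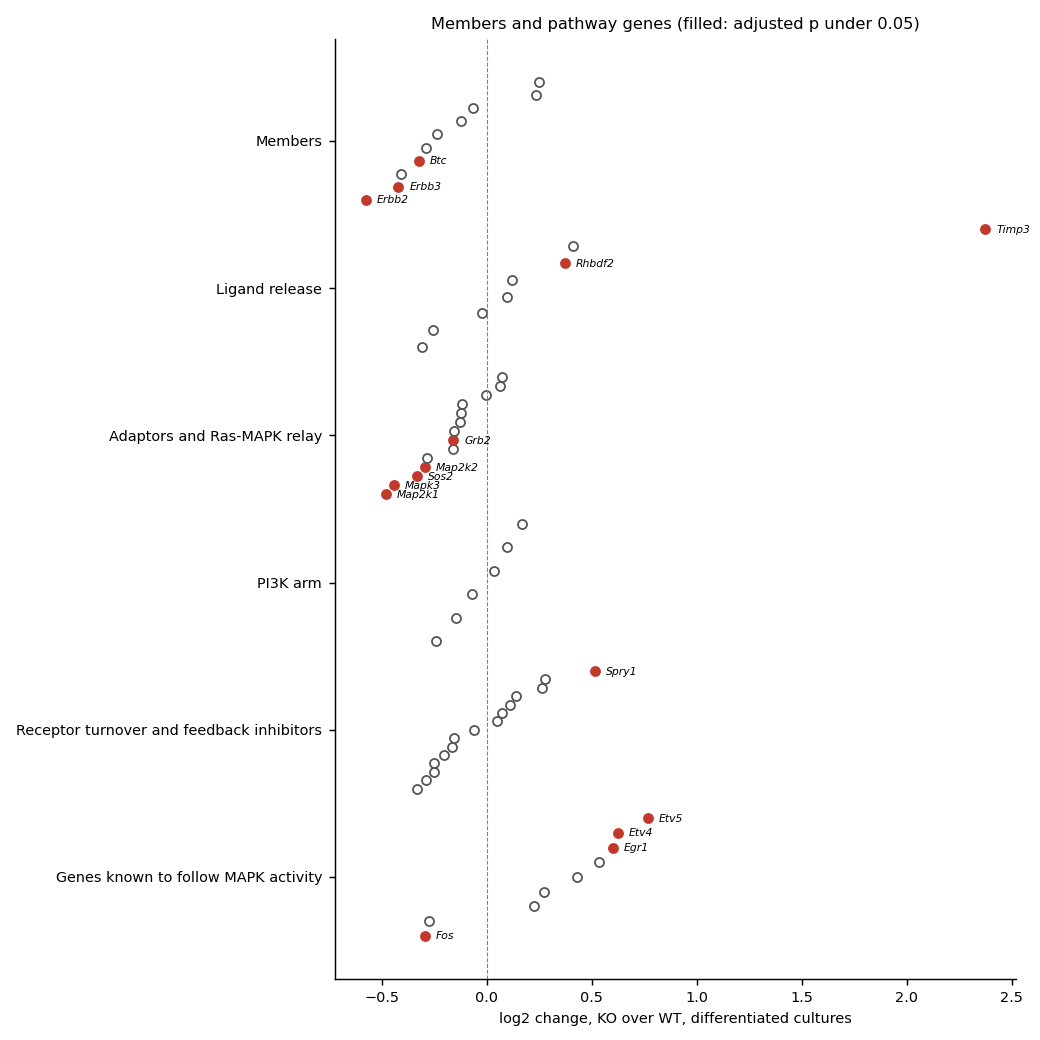
Log2 change of KO over WT in differentiated cultures for the 10 members and for the genes of 5 pathway lists, 1 point per gene; filled and named points have an adjusted p under 0.05 (limma). Timp3 lay far to the right at 2.37, all 5 called genes of the adaptors and Ras-MAPK relay lay left of 0, and Etv5, Etv4 and Egr1 lay at 0.60 to 0.77.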

How the data were processed

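Total RNA of 12 mouse colonic organoid libraries was sequenced. Per the labels, the authors processed reads with Bowtie2, RSEM 1.2.11 and DESeq2 1.18.1 on build GRCm38. Annotation, strand and filters are not given in the sources used here. The deposited values are a normalized signal, that is, gene counts divided by a size factor per library. Each value was a whole multiple of 1 read (100.0% of values within 0.05 of a read), so read counts were recovered for edgeR and DESeq2. Gene names came from GENCODE vM21 (99.1% of IDs matched).

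limma 3.58.1 (R 4.3.3) was run on log2(value + 1) with 4 group means, a mean-variance trend and all 12 libraries, over 14856 genes. Called means adjusted p under 0.05 (Benjamini-Hochberg, two-sided). Alternatives were pseudocounts of 0.5 and 5, no filter, a mean of at least 50, recomputed size factors, quantile normalization, edgeR 4.0.16, DESeq2 1.42.0, only the groups compared, a replicate block, and leaving libraries out. The fits were tested on simulated data. Samples were grouped by their titles. In KO, stem and differentiated libraries with the same number deviated together (r = 0.286, 0.191 and 0.256). Libraries numbered 1 of unlike genotype also did (0.201 for WT stem 1 and KO differentiated 1, 0.157 for KO stem 1 and WT stem 1). These correlations therefore cannot settle whether the numbers pair the samples. The block changed no member call between KO differentiated and KO stem cultures. No libraries of a group were duplicates.

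Members and pathway lists were chosen with earlier results of these data known. A gene of the lists is not reported here and is left out of their counts. From each list, genes were named if called in a comparison and among the 3 of the list with the largest absolute change there, or if under 10 normalized counts throughout; Egf, Nrg1, Egr1 in the interaction, Fos between genotypes, values of a named gene in further comparisons and the other called genes labelled in the plot of pathway genes were named after their values were seen. The 3 genes closest to each member were sought among protein-coding genes with a mean of at least 50.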

Additional observations from a re-analysis of the deposited data

Results flagged for a closer look

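The response to differentiation differed between KO and WT, by the interaction term of limma, for 2 of the 10 members and 5 of the 59 pathway genes listed. Among these 59, the other receptors and ligands apart from Nrg4 did not pass the filter and were not tested. Over all genes tested, the interaction was called positive for 5.12% and negative for 3.58%. The KO minus WT difference was -0.598 for Erbb2 (adjusted p = 0.0327), which rose by 1.24 in KO and 1.84 in WT on the log2 scale. It was -0.447 for Tgfa (adjusted p = 0.0446), which changed by -0.06 in KO and rose by 0.39 in WT. It was 0.899 for Etv5 (adjusted p = 0.00928), which fell by 0.82 in KO and by 1.72 in WT. It was 0.699 for Etv4 (adjusted p = 0.0126), which rose by 0.39 in KO and fell by 0.31 in WT. It was 0.525 for Egr1 (adjusted p = 0.0306), which fell by 0.79 in KO and by 1.31 in WT. It was -0.537 for Dusp6, a phosphatase of ERK (adjusted p = 0.0321), which fell by 0.34 in KO and changed by 0.20 in WT (adjusted p = 0.0703). It was -0.464 for Pik3cb (adjusted p = 0.045), which fell by 0.56 in KO and changed by -0.10 in WT (adjusted p = 0.35). Etv5 and Etv4 kept the call in all 24 alternatives, Egr1 in 17, Erbb2 in 15, Pik3cb in 12 and Dusp6 and Tgfa in 11. The replicate block within genotype ended the calls of Erbb2, Dusp6 and Pik3cb.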

How the results depend on the processing

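Of the 18 called member changes, 12 kept their call and direction under every alternative run, and 6 lost it under at least 1. Of the 32 others, 13 passed under at least 1 alternative and 12 turned sign under at least 1. Between KO and WT stem cultures, 0 members were called with no filter and with only the groups compared and 2 with DESeq2, against 1 in the fit reported, and leaving out 1 library gave 0 to 3. In differentiated cultures 6 were called with only the groups compared and 5 with the replicate block, against 3, and leaving out 1 library gave 1 to 3. In the interaction 0 were called with no filter and 1 with quantile normalization, edgeR or the replicate block within genotype, against 2, and leaving out 1 library gave 0 to 2. Without both WT stem 1 and KO stem 3, 3 were called in stem cultures and 1 in the interaction. Without both stem libraries numbered 1, an alternative chosen after seeing that Areg was low in them, the interaction count was 0, and no Areg value is taken from it.

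Signs turned only in changes that were not called. With 1 or 2 libraries left out, the log2 change of KO over WT in stem cultures lay between -0.166 and 0.016 for Egfr (0.015 without WT stem 1 and KO stem 3, 0.009 without both numbered 1), -0.047 and 0.067 for Erbb2, -0.079 and 0.174 for Erbb3 and -0.049 and 0.129 for Lrig1 (-0.044 without WT stem 1 and KO stem 3). In differentiated cultures it lay between -0.117 and 0.012 for Errfi1 (0.059 with quantile normalization). With differentiation it lay between -0.464 and 0.208 for Areg in KO (0.072 without WT stem 1 and KO stem 3), -0.889 and 0.028 for Areg in WT and -0.127 and 0.081 for Hbegf in WT. The interaction lay between -0.149 and 0.961 for Areg, -0.136 and 0.257 for Ereg, -0.224 and 0.006 for Hbegf and -0.09 and 0.126 for Btc (-0.004 with quantile normalization, -0.005 with edgeR). The cause of these turns was not tested.

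Over all genes, DESeq2 called 1984 genes between KO and WT stem cultures and 2442 in the interaction, against 976 and 1292 in limma. With only the groups compared 297 genes were called in stem cultures, and with no filter 750 in the interaction. The replicate block common to both genotypes gave 1486 and 2141, although the labels do not tie numbers across genotypes. In stem cultures that block ended the Tgfa call (adjusted p = 0.0515) and added Btc (-0.34, adjusted p = 0.0435). In differentiated cultures it added Egfr (-0.29, adjusted p = 0.0367) and Lrig1 (0.24, adjusted p = 0.0376), and in the interaction Erbb3 (-0.53, adjusted p = 0.0243). Leaving out 1 library gave 363 (without KO stem 1) to 1365 (without WT stem 1) genes in stem cultures, 2233 (without WT differentiated 3) to 3643 in differentiated cultures, against 4103, and 342 (without WT differentiated 3) to 1603 (without WT stem 1) in the interaction. edgeR on the recovered reads called 943 in stem cultures and 4092 in differentiated cultures. In WT, stem and differentiated libraries with the same number had correlations of 0.107, 0.055 and 0.145, so the number alone is shared there, although each WT stem library correlated best with its own number among WT differentiated libraries. The replicate block within genotype added the Ereg fall in WT (-0.35, adjusted p = 0.0495), and with it 8 members were called in WT.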
